A study of Homo sapiens with 61 samples.

Results

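The regions described here are those that carried a peak of trimethylated histone H3 lysine 4 (H3K4me3) in every one of the 18 H3K4me3 libraries of the series while lying far from annotated gene starts. All peaks of the 18 lists were merged where they overlapped or touched, which gave 282418 regions. Of these, 29008 held a peak in all 18 lists, and 13210 of them (45.5% of the 29008, and 4.68% of all merged regions) lay more than 10 kb from the start site of every protein-coding gene and more than 2 kb from that of every lncRNA gene in GENCODE 44. These 13210 constitutive distal regions are called members below. The other regions with a peak in all 18 lists were 12268 promoter regions, which overlapped the 2 kb around a protein-coding start site, and 3530 regions in between. Another 89357 distal regions held a peak in 3 to 17 lists.

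The libraries came from U2OS cells, an established human osteosarcoma line, that were wild-type (WT) or ASH1L-/-, the latter edited with CRISPR/Cas9 to delete parts of the gene for the histone methyltransferase ASH1L. Cells of both genotypes either received no UV or were taken 1 h or 3 h after a UV-C dose of 20 J/m2, and each of these 6 groups had 3 H3K4me3 libraries. XPC, the lesion-recognition protein of nucleotide excision repair, was mapped in the same 6 groups in 19 lists, with 4 libraries for unirradiated WT cells and 3 for each other group. The peaks of H3K4me3 were called against input, and those of XPC against the XPC immunoprecipitate of XPC-deficient cells. Per the study's methods these controls were pooled before peak calling, so fold enrichments over 1 pool share its error, which the spread between libraries and the p-values do not hold. Libraries of 1 group are biological replicates per the labels, which name no separate lines, so each genotype may stand for 1 line, and p-values measure the spread between these libraries. A list of peaks cannot show the deleted ASH1L exons, so the genotype labels were not checked by the data.

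H3K4me3 is laid down by the SET1 and MLL methyltransferase complexes, which are drawn to unmethylated CpG-rich DNA, and the mark is best known from the nucleosomes that flank active and poised promoters. Away from gene starts the same mark is found in lesser amounts at strong enhancers, at starts of transcripts that no annotation lists, and at genes read by RNA polymerase III such as those of tRNAs. Distal elements with the histone marks of enhancers more often carry monomethylated H3 lysine 4.

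To show what kinds of DNA lay under these regions, 8 windows of 300 bases, each centred on the middle of a member's 18 peak summits, are written from the plus strand of hg38. The first pair are the CpG-poor windows and the second pair the CpG-rich windows from members of high enrichment, with every CG dinucleotide in capitals.
ARID5B intron, chr10:62049606-62049905, plus strand: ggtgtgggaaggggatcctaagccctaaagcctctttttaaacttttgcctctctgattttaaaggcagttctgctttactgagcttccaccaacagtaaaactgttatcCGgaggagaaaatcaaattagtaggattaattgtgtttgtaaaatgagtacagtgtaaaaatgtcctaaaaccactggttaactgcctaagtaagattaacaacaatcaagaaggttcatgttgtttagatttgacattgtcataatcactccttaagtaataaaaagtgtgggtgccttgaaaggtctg
ENSG00000283217/ENSG00000283341, chr11:43644452-43644751, plus strand: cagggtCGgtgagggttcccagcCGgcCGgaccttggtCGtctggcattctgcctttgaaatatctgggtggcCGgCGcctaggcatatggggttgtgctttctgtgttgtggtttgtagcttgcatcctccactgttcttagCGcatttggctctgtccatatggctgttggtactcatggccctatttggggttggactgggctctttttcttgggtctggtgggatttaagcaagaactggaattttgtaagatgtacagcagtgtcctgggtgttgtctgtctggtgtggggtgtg
near PKDCC, chr2:41841164-41841463, plus strand: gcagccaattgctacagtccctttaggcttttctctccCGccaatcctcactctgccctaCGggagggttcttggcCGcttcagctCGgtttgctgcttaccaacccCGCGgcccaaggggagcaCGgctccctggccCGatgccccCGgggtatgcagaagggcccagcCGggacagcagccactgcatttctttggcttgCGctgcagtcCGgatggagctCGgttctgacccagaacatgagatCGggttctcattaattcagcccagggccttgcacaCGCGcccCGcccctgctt
ENSG00000288843, chr20:41692997-41693296, plus strand: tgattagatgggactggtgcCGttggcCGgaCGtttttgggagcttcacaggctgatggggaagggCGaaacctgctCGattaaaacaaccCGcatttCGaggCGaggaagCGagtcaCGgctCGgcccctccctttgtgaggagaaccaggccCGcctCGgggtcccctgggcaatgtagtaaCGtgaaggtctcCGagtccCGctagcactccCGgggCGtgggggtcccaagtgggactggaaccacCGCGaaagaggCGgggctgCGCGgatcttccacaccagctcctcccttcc
The ARID5B window held 1 CG in 300 bases at a GC content of 37%, and the ENSG00000288843 window held 23 at 62.7%. The second window of the CpG-poor pair held 7 and the PKDCC window 17, so that members with a strong mark ranged from bulk genomic DNA to sequence like that of an island promoter. A further pair shows members in which the AP-1 motif TGANTCA, bound by FOS and JUN dimers, occurred at least 2 times, with each match in capitals.
ENSG00000251339/LINC02619, chr4:58940135-58940434, plus strand: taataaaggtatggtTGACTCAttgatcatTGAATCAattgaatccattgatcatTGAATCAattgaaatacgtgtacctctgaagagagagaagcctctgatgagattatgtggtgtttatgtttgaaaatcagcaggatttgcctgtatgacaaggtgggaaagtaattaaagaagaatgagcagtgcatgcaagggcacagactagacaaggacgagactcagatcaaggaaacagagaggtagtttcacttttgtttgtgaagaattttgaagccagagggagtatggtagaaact
near H3Y1, chr5:18698298-18698597, plus strand: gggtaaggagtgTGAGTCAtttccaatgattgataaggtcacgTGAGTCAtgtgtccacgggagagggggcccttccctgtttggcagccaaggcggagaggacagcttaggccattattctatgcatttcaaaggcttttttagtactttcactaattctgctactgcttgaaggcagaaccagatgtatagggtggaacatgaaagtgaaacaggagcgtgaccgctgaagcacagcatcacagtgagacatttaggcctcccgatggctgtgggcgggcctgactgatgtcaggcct
The window in LINC02619 held 3 matches and that near H3Y1 held 2, and the 2 members had a mean fold enrichment of 11.7 and 10.3. The last pair shows members that lay on a tRNA gene, with the gene's own bases in capitals.
TRL-CAA6-1, chr1:161611802-161612101, plus strand: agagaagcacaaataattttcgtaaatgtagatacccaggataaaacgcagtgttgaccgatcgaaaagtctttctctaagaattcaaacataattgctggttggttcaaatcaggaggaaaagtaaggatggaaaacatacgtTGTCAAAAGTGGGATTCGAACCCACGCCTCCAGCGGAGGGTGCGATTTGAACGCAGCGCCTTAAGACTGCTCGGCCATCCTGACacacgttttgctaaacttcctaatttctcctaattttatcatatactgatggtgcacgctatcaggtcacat
TRG-GCC1-5, chr21:17454574-17454873, plus strand: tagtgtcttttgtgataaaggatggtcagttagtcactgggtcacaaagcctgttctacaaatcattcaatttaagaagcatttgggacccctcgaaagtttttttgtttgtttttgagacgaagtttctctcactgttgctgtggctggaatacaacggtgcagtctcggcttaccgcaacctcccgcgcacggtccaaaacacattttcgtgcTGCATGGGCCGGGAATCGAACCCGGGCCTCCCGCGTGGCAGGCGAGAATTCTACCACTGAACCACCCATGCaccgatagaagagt
These 2 tRNA members had a mean fold enrichment of 12.6 and 7.0. The capitals follow the plus strand, whichever strand carries the gene.

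Members were chosen by the presence of a called H3K4me3 peak in each list and by distance alone. The height of a member in a library was taken as the highest fold enrichment of any peak in it, that is the authors' ratio of immunoprecipitated to local input signal at the summit, and its extent as the number of kilobases under called peaks. Because membership required a peak in every list, these values have no zeros and are a description of what the rule chose. The mean fold enrichment over the 18 libraries had a median of 4.50 over members, with 5th, 25th, 75th and 95th percentiles of 3.27, 3.84, 5.87 and 9.94. The lowest member had 2.26 and the highest 24.7. Constitutive promoters had a median of 9.45, so that most members stood well below a typical promoter. Only 986 of the 13210 members kept a fold enrichment of 5 or more in all 18 libraries, and 7669 fell below 3 in at least 1 of them. Members covered a median of 1.26 kb per library, against 2.76 kb for promoters, within merged regions with a median width of 2.30 kb (0.363 to 66.3 kb).

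**Figure D1:**
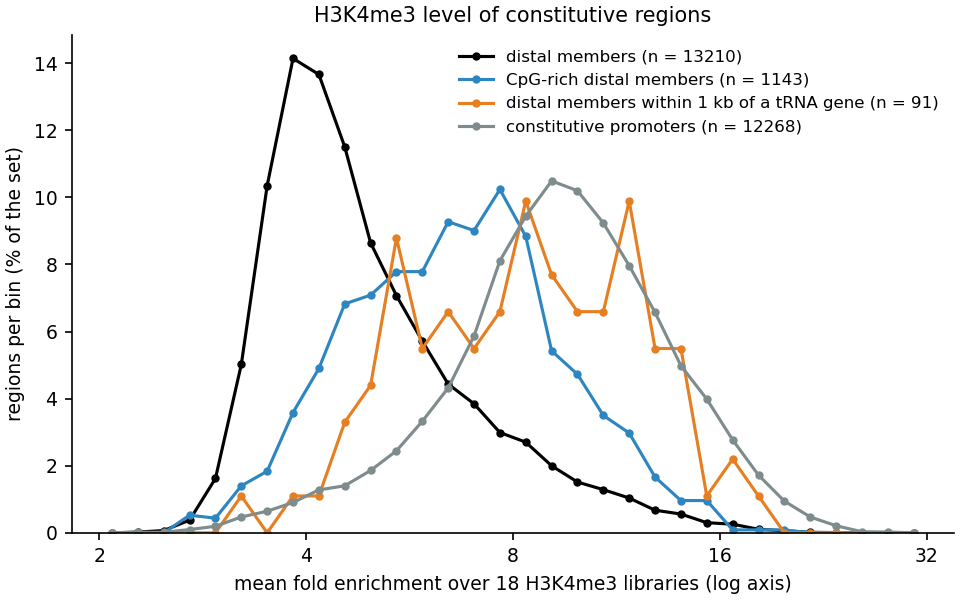
Percent of regions (y axis) in bins of the mean fold enrichment over the 18 H3K4me3 libraries (x axis, log scale), as 1 line each for all 13210 members, the 1143 CpG-rich members, the 91 members at tRNA genes and the 12268 constitutive promoters. Members peak near their median of 4.50, while the lines for tRNA members (median 8.60) and promoters (median 9.45) lie further right.

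The position of the summit was less sharply fixed in members than in promoters. The SD of the summit position over the 18 libraries had a median of 253 bases in members and 173 bases in promoters, and of 120 bases in CpG-rich members. The spread of the height went the other way. The coefficient of variation of the fold enrichment over the 18 libraries had a median of 23.6% in members, 33.7% in promoters and 36.3% in CpG-rich members. These are descriptions over libraries of all 6 groups, so they mix replicate spread with the effects of UV and genotype.

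Most members had no annotated start of the classes examined within 1 kb. Of the 13210, 5539 (41.9%) lay between genes, 4849 (36.7%) in an intron of a protein-coding gene, 2196 (16.6%) in a lncRNA gene and 626 (4.74%) on an exon of a protein-coding gene. The starts examined were those of protein-coding, lncRNA, pseudogene, small RNA and unproven (TEC) genes in GENCODE 44, and tRNA genes. None of these lay within 1 kb of 11183 members (84.7%), whose median mean fold enrichment was 4.38. Other gene types were not searched. The median distance of a member to the nearest protein-coding start site used in the rule was 94.3 kb.

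The rule took 1 start site per gene, so alternative starts of the same genes could still fall inside members. Another protein-coding transcript began within 1 kb of 1139 members (8.62%), against 2.53% of distal regions with a peak in 3 to 17 lists, and the median mean fold enrichment of these members was 6.34. This was most frequent on exons, where 358 of the 626 exon members (57.2%) lay at such a start. A pseudogene transcript began within 1 kb of 431 members (3.26%, median fold enrichment 5.25), another lncRNA transcript within 1 kb of 298 (2.26%, 5.65) and a small RNA gene within 1 kb of 130 (0.984%, 5.10). Distances were taken from the edges of a region. Members were wider than distal regions with a peak in 3 to 17 lists (median 2.30 and 0.831 kb), so they reach more starts by width alone. The part of width in the unlike shares was not tested. With the start sites of all annotated transcripts in the rule, 10540 members were left.

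Genes of tRNAs, which are transcribed by RNA polymerase III, were the class of start with the highest mark. A tRNA gene annotated by RefSeq lay within 1 kb of 91 members (0.689%), against 0.0481% of distal regions with a peak in 3 to 17 lists, and the median mean fold enrichment at these members was 8.60. Here too the part of the greater width of members in the unlike shares was not tested. Of the 91, 50 lay in the tRNA gene cluster between 25 and 30 Mb of chromosome 6, where 80 members in all had a median of 8.31. The highest of these, chosen after its values were seen, was chr6:27501380-27506688 with a mean fold enrichment of 19. In its unirradiated WT libraries it stood at 17.3, 14.1 and 19.8, and in its unirradiated ASH1L-/- libraries at 15.2, 13.4 and 12.3. The next 3 tRNA members of that cluster, chr6:27790939-27793902, chr6:28727434-28730096 and chr6:28474008-28476096, had means of 17.4, 17.2 and 15.0.

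The share of CpG islands separated members from promoters more than any other sequence property examined. A region was called CpG-rich where the 1 kb around its summits had a GC content of at least 50% and an observed-to-expected ratio of CG of at least 0.6. By this measure 1143 members (8.65%) were CpG-rich, against 81.2% of constitutive promoters, 0.714% of distal regions with a peak in 3 to 17 lists and 10.5% of all 131511 regions with a peak in at least 3 lists. CpG-rich members had a median mean fold enrichment of 6.66 and CpG-poor members 4.41. Another protein-coding transcript start lay within 1 kb of 32.4% of the CpG-rich members and 6.37% of the CpG-poor ones. In the 300-base window the median GC content was 48.7% in members, 68.3% in CpG-rich members and 67.3% in promoters, with a median of 3, 27 and 24 CG dinucleotides.

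Short motifs were counted in the same 300-base windows on both strands. The AP-1 motif TGANTCA was present in 9.0% of members, 2.48% of constitutive promoters, 9.96% of distal regions with a peak in 3 to 17 lists and 8.93% of all regions with a peak in at least 3 lists. Of the 1274 matches in members, 615 (48.3%) lay within 75 bases of the window's centre, which is where an even spread would put about as many. The letters TATAAA of the TATA box were in 14.9% of members and 2.95% of promoters, and GGAATG, read by TEAD factors, in 17% and 10.8%. The SP/KLF motif GGGCGGGG, frequent in island promoters, was in 3.71% of members, 18.9% of promoters and 3.78% of all these regions, and in 23.5% of CpG-rich members. The RUNX motif TGTGGTTT was in 2.32% of members and 0.636% of promoters, the CTCF motif (CCA, AG and GGC with 2 free bases between each) in 1.64% and 2.09%, and the E-box CACGTG in 4.16% and 4.66%. The ETS motif CCGGAAGT, the NRF1 motif GCGCATGCG and the CRE motif TGACGTCA were each in under 1% of members (0.257%, 0.129% and 0.227%). For AP-1, TATA, TEAD, RUNX and CTCF the share in members was close to that in all regions, and CpG-rich members resembled promoters, with AP-1 in 2.62% of them. A match is a string of letters and no measured site.

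The strongest members differed in kind from the bulk. Among the 100 members of highest mean fold enrichment (14.7 to 24.7), 39% lay within 1 kb of another protein-coding transcript start, 14% were CpG-rich and 4 lay at tRNA genes, and the median covered length was 3.60 kb. Among ranks 101 to 1000 (8.80 to 14.7) these values were 25.7%, 23.6%, 37 members and 1.74 kb. From rank 1001 down (8.80 to 2.26) they were 7.12%, 7.51%, 50 members and 1.22 kb. The share with none of the annotated starts was 44%, 59.6% and 86.8% in this order, and the share with an AP-1 motif 4%, 6.22% and 9.25%.

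The member with the highest mean fold enrichment lay in ARID5B, which codes for a DNA-binding partner of a histone demethylase. It spanned chr10:62045165-62060543, an intron that holds the start of a shorter ARID5B transcript, and had a mean of 24.7 ± 3.69 (SD, n = 18 libraries) and a mean covered length of 13.1 kb. Its fold enrichment was 21.7, 21.1 and 26.0 in unirradiated WT, 26.6, 25.3 and 16.7 at 1 h and 29.5, 28.0 and 26.6 at 3 h. The ASH1L-/- libraries gave 20.8, 21.5 and 20.3 without UV, 27.6, 28.3 and 21.9 at 1 h and 26.9, 27.5 and 28.5 at 3 h. The 3 h libraries of both genotypes all stood above the unirradiated ones, while 1 library at 1 h in WT stood below them, and no contrast of fold enrichment passed.

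The next 5 also lay at internal starts. EPC1, a subunit of the NuA4 histone acetyltransferase complex, held a member on an exon at chr10:32373119-32379959 with a mean of 24.3 ± 4.19. A member at chr11:43643395-43645558 in the lncRNA genes ENSG00000283217 and ENSG00000283341 had 22.3 ± 6.57, the widest spread of the 6. The members of ST6GALNAC5, a sialyltransferase (chr1:76994534-76999595), of MIA3, which loads collagen into vesicles at the endoplasmic reticulum (chr1:222643097-222645850), and of RBFOX2, a splicing factor (chr22:35833170-35841134), had means of 20.8, 20.3 and 20.0. Of the 6, the one in MIA3 was CpG-rich. Another protein-coding transcript of the host began inside 5 of the 6, and a lncRNA transcript began inside the one on chromosome 11.

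The longest members were broad domains of modest height. A member in the zinc finger gene ZNF678 (chr1:227608009-227674354) was 66.3 kb wide and covered 48.7 kb on average, with 36.3, 43.0 and 46.3 kb in unirradiated WT and 37.5, 36.3 and 43.3 kb in unirradiated ASH1L-/- libraries. The lncRNA gene LINC00662 (chr19:27705827-27747043) held one of 34.1 kb. The next, chr8:139520764-139562322 between genes and chr10:130254060-130291893 in LINC02646, covered 33.1 and 26.5 kb. Their mean fold enrichments were 8.35, 8.62, 7.77 and 6.06, all well below those of the strongest members.

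The regions at the 10 kb threshold are given as a description. A member just inside it lay near the start site of PSMG4 (chr6:3246844-3248944), with a mean fold enrichment of 6.32 ± 1.40. The regions just outside lay near ZNF546 (chr19:40007052-40021420) and PRKAA2 (chr1:56655306-56657445) and had 5.72 ± 1.40 and 4.80 ± 0.989. A further 4693 distal regions missed membership by 1 list.

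Members were not spread evenly. The median gap between neighbours on a chromosome was 98.0 kb, and 1054 of 13187 gaps (7.99%) were under 5 kb. Chromosome 2 held most members (1315), but per megabase chromosomes 10 (6.97), 8 (6.94), 19 (6.30) and 20 (6.28) held most, and chromosomes X (1.45) and 13 (1.65) fewest. The densest 5 Mb was 25 to 30 Mb of chromosome 15, with 114 members, of which 35 lay in GABRG3, the gene of a GABA receptor subunit, and 20 in OCA2, the gene of a melanosome transporter. These members stood at a median fold enrichment of 4.10, and 71 of them lay in introns. The end of chromosome 8, from 125 to 145 Mb, held 334 members, 103 of them in lncRNA genes, with 21 each in CCDC26 and TRAPPC9. That end of chromosome 8 was also dense in XPC peaks. The share of bases under XPC peaks in WT cells was 2.41 times the genome's at 135 to 140 Mb and 4.64 times at 140 to 145 Mb, against 0.828 times in the dense stretch of chromosome 15. U2OS cells carry many copy number changes, and the part of copy number in the local density of members was not tested.

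The genes nearest to members were counted for 4 lists of lineage, stress and repair genes taken from general knowledge. With 13210 members and 19970 protein-coding start sites, genes of any list may be nearest to a member. The share over all genes is not given here, so the counts are a description only. Of 15 mesenchymal and osteoblast genes, 8 were nearest to 30 members, 11 of them near MSX2, 7 near TWIST2 and 4 near RUNX2. Of 17 immediate early genes, 11 were nearest to 38 members, 18 of them near MYC and 4 near JUN. Of 12 p53 target genes, 5 were nearest to 8 members, and of 15 genes of excision repair and ASH1L partners, 5 were nearest to 11 members, 6 of them near ERCC4. As a check of the cell type, the promoters of the mesenchymal genes RUNX2, PRRX1, SPARC, VIM and THY1 held a peak in 18 of 18 lists and those of TWIST1 and COL1A2 in 0. Those of the blood genes PTPRC, CD3E and SPI1, of CDH1 and of ALB held a peak in 0 lists, KRT5 in 4, APOA1 in 16 and EPCAM in 18, the last with a median highest fold enrichment of 2.39.

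The members as a whole were higher in irradiated than in unirradiated libraries, and further apart in WT than in ASH1L-/- cells. The median fold enrichment over the 13210 members was 3.91, 3.60 and 4.50 in the 3 unirradiated WT libraries, 4.75, 5.20 and 5.00 at 1 h and 5.49, 5.04 and 5.28 at 3 h. Without ASH1L it was 3.97, 3.83 and 4.10 without UV, 4.15, 4.76 and 4.62 at 1 h and 4.32, 4.14 and 4.54 at 3 h. No irradiated library of either genotype stood below the unirradiated libraries of its own genotype. The 3 h medians were 5.27 ± 0.227 in WT and 4.33 ± 0.200 in ASH1L-/- cells (SD, n = 3), while the unirradiated ones were 4.01 ± 0.458 and 3.97 ± 0.134.

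The median covered length of members moved less cleanly. It was 1.03 ± 0.139 kb in unirradiated WT, 1.40 ± 0.144 kb at 1 h and 1.51 ± 0.206 kb at 3 h, and 1.04 ± 0.112, 1.22 ± 0.239 and 1.25 ± 0.177 kb in ASH1L-/- cells. In WT the 6 irradiated libraries (1.27 to 1.63 kb) all lay above the unirradiated ones (0.910 to 1.18 kb). In ASH1L-/- cells the groups overlapped, since 1 library at 1 h and 1 at 3 h had 0.956 and 1.06 kb and the unirradiated ones 0.939 to 1.16 kb. Members took a nearly fixed part of each library, 21.0 to 23.2% of all covered bases, while their summed length ran from 15.9 to 27.9 Mb, so that libraries with longer members also had more H3K4me3 called elsewhere. The lists held 72984 to 142688 peaks. Read totals of the libraries were not used here, and the part of depth in these shifts was not tested.

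**Figure D2:**
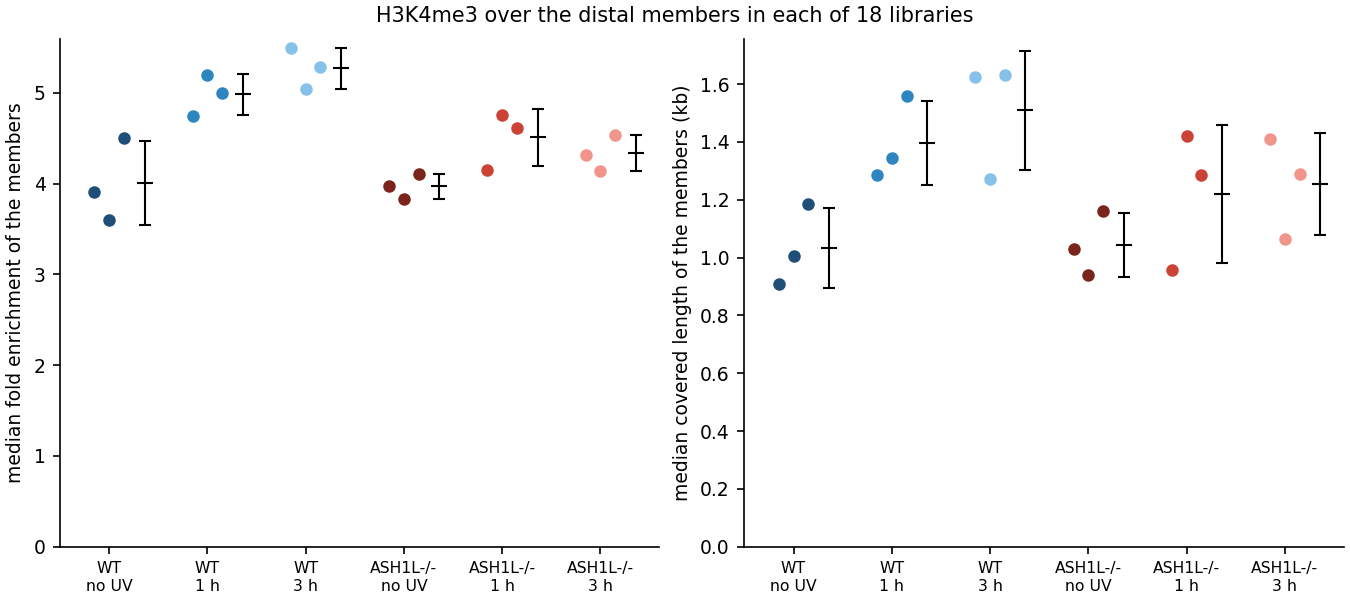
Median fold enrichment (ratio to input) and median covered length (kb) of the 13210 members in each of the 18 H3K4me3 libraries, as points, by genotype and time, with the mean and SD of each group of 3. In WT all 6 irradiated libraries lie above the 3 unirradiated ones in both panels, and in ASH1L-/- cells they do so for fold enrichment only.

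Promoters gave a different profile over time. Their median fold enrichment in WT was 8.99 ± 1.56 without UV, 13.0 ± 2.11 at 1 h and 10.4 ± 0.344 at 3 h. The ASH1L-/- groups had 6.69 ± 0.189, 9.89 ± 1.90 and 6.24 ± 0.428 in this order (SD, n = 3). The median of promoters in WT was thus highest at 1 h, while that of members at 1 h and 3 h (4.98 ± 0.226 and 5.27 ± 0.227) differed by little more than 1 SD, and without UV the genotypes stood apart at promoters (8.99 and 6.69) but not in the medians of members (4.01 and 3.97). The share of members with a fold enrichment of 5 or more was 27.8 ± 10.8% in unirradiated WT and 25.2 ± 3.8% in unirradiated ASH1L-/- libraries, and 56.4 ± 4.27% and 35.2 ± 4.25% at 3 h.

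Single regions were compared with limma, in 1 fit over all 18 libraries for all 131511 regions with a peak in at least 3 lists (covered length) or for all 29008 constitutive regions (log2 fold enrichment), with p-values adjusted by Benjamini and Hochberg over all regions of a contrast and a threshold of 0.05. The UV change was the mean of the 1 h and 3 h groups minus the unirradiated group, and the difference of the UV changes was WT minus ASH1L-/-. All contrasts of a genotype share its 3 unirradiated libraries. Other regions of the covered length fit could be at 0 in some libraries and members could not, which separates the classes by construction.

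In WT cells 1972 of the 13210 members (14.9%) grew longer after UV and 0 shrank, against 9.29% of all regions tested that grew and 0.135% that shrank. The median change of members was 0.35 kb, and of all regions 0.156 kb. In ASH1L-/- cells 365 members (2.76%) grew and 102 shrank, against a background of 1.82% and 0.874%, with a median change of 0.192 kb. The UV change was greater in WT for 561 members (4.25%) and greater in ASH1L-/- cells for 2, against 3.00% and 0.125% of all regions. Without UV, 89 members were longer in ASH1L-/- cells and 30 shorter, close to the background of 0.646% and 0.173%.

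These counts depended on the total called per library. Once covered length was brought to the same total in every library, 224 members grew and 67 shrank in WT (background 2.41% and 0.370%), and 261 grew and 363 shrank in ASH1L-/- cells (1.28% and 2.01%). The difference of the UV changes was then greater in WT for 400 members and smaller for 89 (2.74% and 0.310%), and without UV 267 were longer and 226 shorter in ASH1L-/- cells (1.80% and 1.01%). Scaled, the median change of members in WT was −0.0622 kb, so that relative to the total called, the typical member did not lengthen. Single libraries also moved the counts as measured by more than 1.5 times. The count for WT went from 1972 to 500 and 584 without unirradiated WT replicate 1 or 2, to 1298 without WT replicate 3 at 1 h and to 1267 without WT replicate 1 at 3 h. For ASH1L-/- cells, 467 calls in both directions went to 174, 126 and 256 without unirradiated ASH1L-/- replicate 1, 2 or 3, to 261 without replicate 2 at 1 h and to 295 without replicate 1 at 3 h. For the difference, 563 calls went to 312 and 347 without unirradiated WT replicate 1 or 2 and to 339 without unirradiated ASH1L-/- replicate 3. Without UV, 119 calls went to 46 and 60 without WT replicate 1 or 2 and to 53 and 52 without ASH1L-/- replicate 1 or 3.

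By fold enrichment, 4095 members (31.0%) rose after UV in WT and 14 fell, which is close to the 31.6% and 0.128% of all constitutive regions. Of the members in ASH1L-/- cells 971 (7.35%) rose and 150 fell, against 7.31% and 0.845%. The rise was greater in WT for 1046 members (7.92%) and smaller for 76, against 6.90% and 0.524%. The median log2 change of members was 0.36 in WT and 0.18 in ASH1L-/- cells, beside 0.38 and 0.21 over all constitutive regions. Members therefore rose about as often as other constitutive regions. Centred on the median of each library, 264 members rose and 109 fell in WT (background 2.74% and 1.37%), and 180 rose and 783 fell in ASH1L-/- cells (1.72% and 5.83%). The difference centred was 675 higher and 189 lower (5.76% and 1.85%). As measured, 4109 calls in both directions for WT went to 2589 and 1277 without unirradiated WT replicate 1 or 2. For ASH1L-/- cells 1121 calls went to 349, 252 and 312 without unirradiated replicate 1, 2 or 3, to 618 without replicate 2 at 1 h, and to 744 and 716 without replicate 2 or 3 at 3 h. For the difference 1122 calls went to 619 without unirradiated WT replicate 2 and to 739 and 677 without unirradiated ASH1L-/- replicate 1 or 3.

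**Figure D3:**
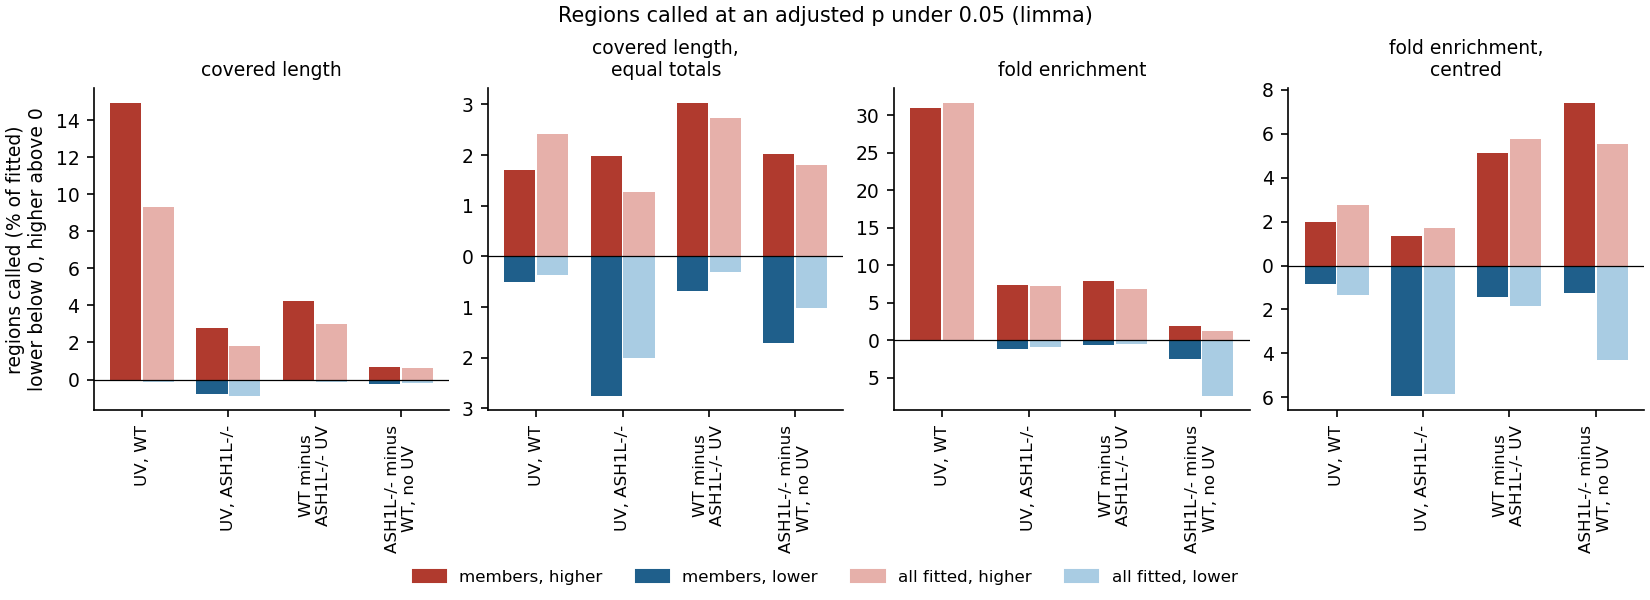
Percent of members and of all fitted regions called higher (up) or lower (down) at an adjusted p under 0.05 in 4 contrasts, with 1 panel each for covered length, scaled covered length, fold enrichment and centred fold enrichment. The bars for members and for all regions are alike for fold enrichment after UV (31.0% and 31.6% in WT), and differ most for covered length after UV in WT (14.9% and 9.29%) and for fold enrichment lower in unirradiated ASH1L-/- cells.

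The 2 genotypes without UV were also compared by CpG content. By fold enrichment 262 members (1.98%) were higher and 329 lower in ASH1L-/- cells, while over all constitutive regions 1.31% were higher and 7.36% lower. The lower calls were more frequent among CpG-rich members. Of the 1143 CpG-rich members 6 were higher and 169 (14.8%) lower, beside 0.304% and 14.8% of all 12171 CpG-rich constitutive regions. Of the 12067 CpG-poor members 256 were higher and 160 lower, beside 2.04% and 1.96% of all CpG-poor constitutive regions. Centred on each library's median the members gave 978 higher and 164 lower calls (background 5.55% and 4.32%). Of these, CpG-rich members gave 36 and 100, beside 2.19% and 9.13% of all CpG-rich constitutive regions. CpG-poor members gave 942 and 64, beside 7.98% and 0.849% of all CpG-poor ones. The median log2 change of members was −0.02 as measured and 0.22 centred, so the direction of the typical member turned with the centring. CpG-rich members thus had more lower than higher calls on both scales, and CpG-poor members more higher than lower calls. The same order held over all constitutive regions of each kind, so it was not particular to members. As measured, 591 calls over all members in both directions went to 164, 997 and 240 without unirradiated WT replicate 1, 2 or 3, and to 314, 273 and 303 without unirradiated ASH1L-/- replicate 1, 2 or 3. Without WT replicate 2 the split over all members was 200 higher and 797 lower, which was not computed by CpG content.

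The shares called after UV were also unlike in CpG-rich and CpG-poor members. In WT 488 of the CpG-rich members (42.7%) rose in fold enrichment and 0 fell, and 3607 of the CpG-poor members (29.9%) rose, against 31.7% of all CpG-rich and 31.5% of all CpG-poor constitutive regions. For covered length the order was reversed, with 92 (8.05%) and 1880 (15.6%) that grew, while over all regions fitted it was 11.7% of the CpG-rich and 9.01% of the CpG-poor. The numbers that rose in fold enrichment in ASH1L-/- cells were 121 (10.6%) and 850 (7.04%), beside 7.07% and 7.48% of all constitutive regions of each kind. The difference of the UV changes was greater in WT for 80 CpG-rich members (7.0%) and for 966 CpG-poor members (8.01%), beside 4.87% and 8.37%. The difference between the 2 kinds was not itself tested. Among the 91 tRNA members, 23 (25.3%) rose in fold enrichment in WT and 17 (18.7%) in ASH1L-/- cells, against 31.6% and 7.31% of all constitutive regions, and 0 fell in either. Centred, 2 and 4 of them rose, against 2.74% and 1.72%. In unirradiated ASH1L-/- cells 7 (7.69%) were lower than in WT, against 7.36%. Of the 626 exon members, 132 (21.1%) grew in length after UV in WT and 69 (11%) in ASH1L-/- cells, against 9.29% and 1.82% of all regions fitted. Scaled to an equal total, 10 (1.60%) and 45 (7.19%) of the exon members grew, against 2.41% and 1.28%.

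Changes in length were ranked in kb, and a member cannot gain more than its own width. The greatest gains could therefore only lie in wide members. The member in TRAPPC9, a gene for a subunit of a vesicle tethering complex (chr8:139836282-139866820), covered 9.96, 9.81 and 10.7 kb in unirradiated WT, 24.5, 20.3 and 20.8 kb at 1 h and 30.2, 28.3 and 29.7 kb at 3 h. Without ASH1L it covered 11.2, 20.0 and 16 kb without UV, 5.50, 10.1 and 5.21 kb at 1 h and 7.72, 3.67 and 4.2 kb at 3 h. The groups did not overlap in either genotype, and the 2 genotypes moved in opposite directions. The UV change was 15.5 ± 1.61 kb in WT (SE, adjusted p = 1e-04, limma) and −9.67 ± 1.61 kb in ASH1L-/- cells (adjusted p = 0.0058), and the difference 25.2 ± 2.27 kb (adjusted p = 5.2e-05). Scaled to an equal total, the changes were 9.62 and −12.7 kb, both still called.

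A member between genes near ALG10, chr12:34378375-34408105, moved as far in WT. It covered 6.37, 4.26 and 7.78 kb without UV, 15.4, 13.6 and 13.7 kb at 1 h and 28.1, 22.9 and 26.8 kb at 3 h. The change was 13.9 ± 0.94 kb (adjusted p = 3.6e-06, limma). The 9 ASH1L-/- libraries lay between 1.3 and 5.29 kb, and the difference of the UV changes was 15.6 ± 1.32 kb (adjusted p = 3e-05).

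LINC00662 gave a lengthening that was not kept on the other scale. Its member covered 21.5, 27.2 and 29.5 kb without UV and 38.6 to 40.5 kb in the 6 irradiated WT libraries, a change of 13.3 ± 3.94 kb (adjusted p = 0.044, limma) that was lost without any of 13 of the 18 libraries. Scaled, the change was 2.51 kb with an adjusted p of 0.82. The ZNF678 member, the longest of all, did not pass in any contrast of length.

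The 3 members that lengthened most after UV in ASH1L-/- cells all lay in zinc finger genes of chromosome 19, a class whose proteins repress transposable elements. The member in ZNF569 (chr19:37407151-37436403) covered 12, 9.09 and 13 kb without UV and 14.1 to 25.9 kb after it, a change of 9.43 ± 2.26 kb (adjusted p = 0.037, limma) that was lost without any of 7 of the 18 libraries. Those in ZNF790 (chr19:36802356-36827041) and ZNF850 (chr19:36743755-36762468) changed by 7.99 ± 1.46 kb (adjusted p = 0.0094) and 7.39 ± 1.40 kb (adjusted p = 0.011), both lost without unirradiated ASH1L-/- replicate 2. In WT the ZNF569 and ZNF850 members changed the same way, by 7.85 kb (adjusted p = 0.04) and 5.70 kb (adjusted p = 0.02).

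All 3 members that shortened most in ASH1L-/- cells lay on chromosome 8 and lengthened in WT. Beside TRAPPC9 these were chr8:139494824-139516598, with a change of −6.41 ± 1.42 kb in ASH1L-/- cells and 7.83 kb in WT (adjusted p = 0.025 and 0.0038, limma), and chr8:46373014-46395829, with −5.36 ± 1.34 kb and 8.29 kb (adjusted p = 0.044 and 0.0018). The first fall in ASH1L-/- cells was lost without unirradiated ASH1L-/- replicate 2 or 3, and the second without any of 12 of the 18 libraries. The first covered 8.76, 10.4 and 12.3 kb in unirradiated WT, 17.4, 16.4 and 20.3 kb at 1 h and 19.7, 16.3 and 19.9 kb at 3 h. Without ASH1L it covered 12.4, 15.1 and 14.8 kb without UV and 3.19 to 11.1 kb after UV, so the groups did not overlap in either genotype.

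As measured, 2 members were called with a smaller change in length in WT than in ASH1L-/- cells. Scaled to an equal total there were 89, against 0.310% of all regions. The 2 as measured are given here. The member in LRRC2, a gene for a leucine-rich repeat protein (chr3:46520299-46525215), covered 3.54, 4.24 and 4.10 kb in unirradiated WT and 2.93, 2.94 and 2.52 kb in unirradiated ASH1L-/- libraries. After UV the 6 libraries of ASH1L-/- cells covered 3.71 to 4.77 kb, and those of WT 3.90 to 4.83 kb. The difference of the changes was −1.13 ± 0.29 kb (adjusted p = 0.043, limma), and the genotypes stood apart without UV rather than after it. The other was chr4:130542820-130544594, with −0.85 ± 0.22 kb (adjusted p = 0.049). Both calls were near the threshold, since leaving out any of 13 and 15 of the 18 libraries took them past it, and scaled to an equal total that of LRRC2 was not called.

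Several members differed between the genotypes before irradiation and went on differing after it. A pair of neighbouring members in NRXN3, a gene for a synaptic adhesion protein, gave the greatest loss. The longer, chr14:78510341-78531776, covered 13.2, 17.8 and 17.1 kb in unirradiated WT and 0.390, 2.31 and 5.36 kb in unirradiated ASH1L-/- libraries, a difference of −13.4 ± 1.72 kb (adjusted p = 0.0014, limma). In the irradiated libraries it covered 14.5 to 19.9 kb in WT and 0.242 to 5.77 kb in ASH1L-/- cells, so that all 9 WT libraries stood above all 9 of the other genotype. Its neighbour chr14:78493576-78508829 differed by −10.4 ± 1.28 kb (adjusted p = 0.0011).

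The member in PDGFC, the gene of a platelet-derived growth factor (chr4:156765238-156777849), covered 9.43, 10.8 and 10.0 kb in unirradiated WT and 1.12, 2.18 and 2.52 kb in unirradiated ASH1L-/- libraries. The difference was −8.13 ± 1.05 kb (adjusted p = 0.0014, limma). After UV the ASH1L-/- libraries varied from 2.15 to 8.60 kb, still below every irradiated WT library (10.5 to 11.6 kb).

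Gains in unirradiated ASH1L-/- cells were led by 3 members. One lay at chr10:31672102-31687025, at 5.71 ± 1.24 kb (adjusted p = 0.041, limma), a call that was lost without any of 8 of the 18 libraries. The one in the lncRNA gene ENSG00000224865 (chr7:131897122-131904580) covered 1.10, 2.67 and 1.57 kb in unirradiated WT and 6.14, 6.42 and 6.86 kb in unirradiated ASH1L-/- libraries, a difference of 4.69 ± 0.59 kb (adjusted p = 0.0012). The one at chr4:54159045-54167843 covered 1.01, 1.07 and 1.95 kb in unirradiated WT and 5.30, 5.42 and 5.27 kb in unirradiated ASH1L-/- libraries, a difference of 3.99 ± 0.50 kb (adjusted p = 0.0012). In each of these 2 the unirradiated groups did not overlap, but the members were chosen by this same contrast of the same libraries.

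As a measure of the surrounding DNA that does not use H3K4me3, the coverage by XPC peaks of the 5 Mb around each member was compared between the genotypes. Its log2 ratio of ASH1L-/- to WT over all libraries was 2.39 around ENSG00000224865, 1.03 around chr4:54159045-54167843, 0.76 around chr10:31672102-31687025, −0.71 around the NRXN3 pair and 0.03 around PDGFC. Among these members the sign of this ratio was that of the member's own difference for all but PDGFC, where it was near 0. It was opposite at TRAPPC9 (−0.36) and at 2 members given below, in ADCY8 (−0.19) and near CCZ1B. There the ratio was negative, while the unirradiated ASH1L-/- libraries stood above those of WT. How often the signs go together over all members was not tested. Whether the 2 lines differ in copy number there, and the part of that in these differences, was not tested.

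**Figure D4:**
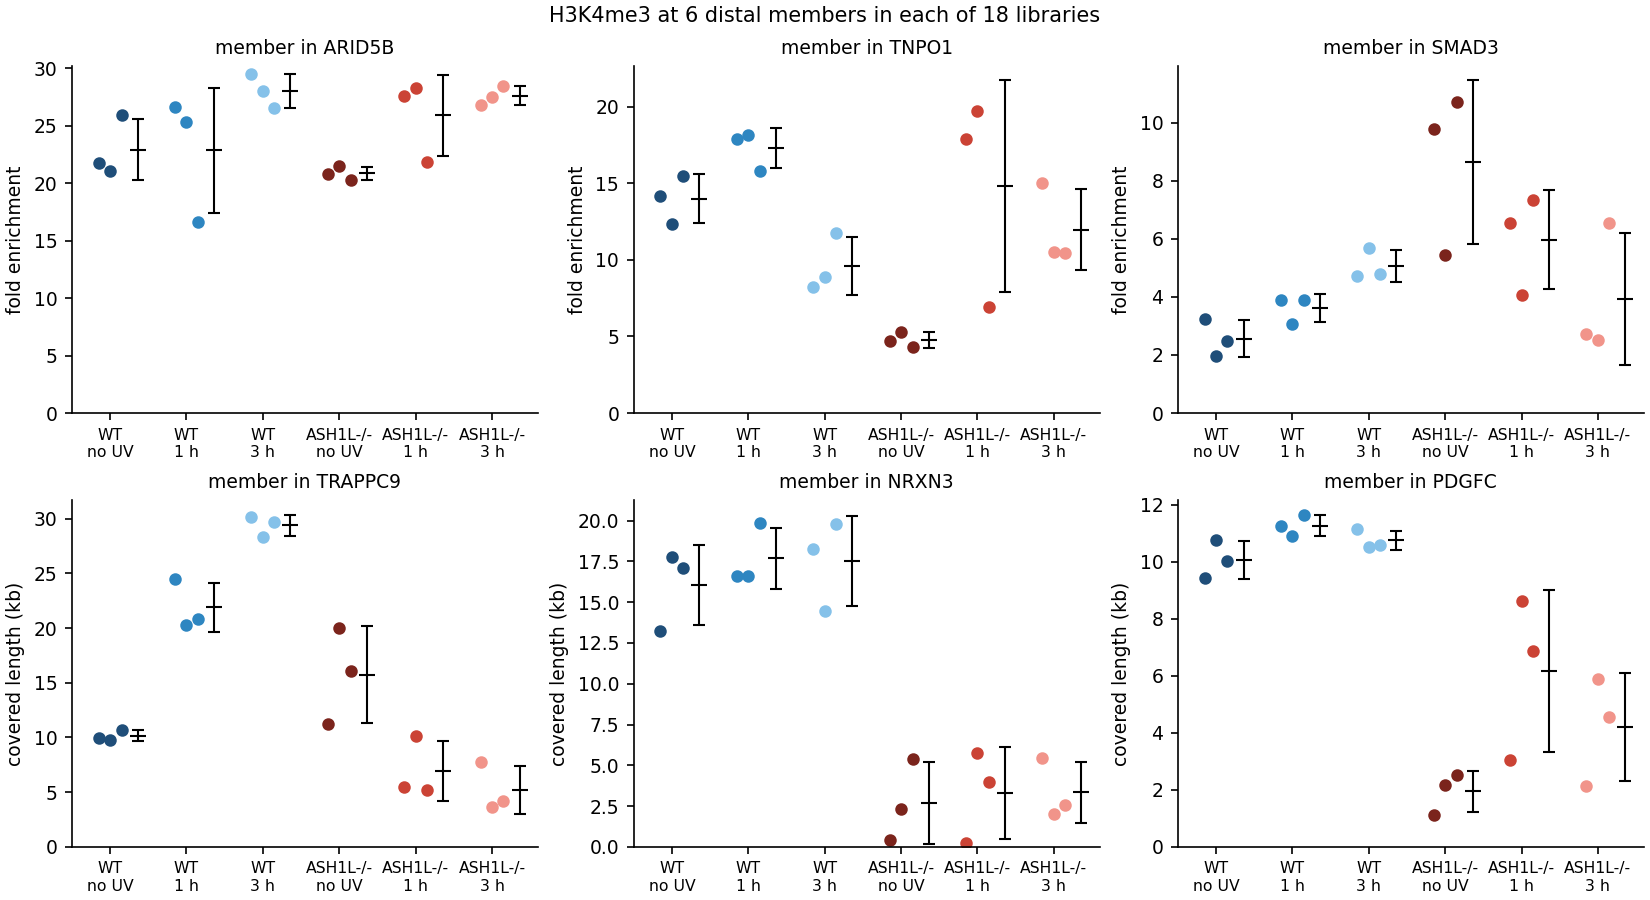
Values of 6 named members in each of the 18 H3K4me3 libraries, as points by genotype and time with the mean and SD of each group: fold enrichment for ARID5B, TNPO1 and SMAD3, and covered length in kb for TRAPPC9, NRXN3 (chr14:78510341-78531776) and PDGFC. TRAPPC9 climbs with time in WT and falls in ASH1L-/- cells, while NRXN3 and PDGFC are lower in ASH1L-/- cells at every time.

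By fold enrichment the greatest rise after UV in WT was in the lncRNA gene LINC02693 (chr17:21510664-21512409), at a CpG-rich member. It stood at 6.13, 3.86 and 6.13 without UV, 21.6, 23.3 and 13.4 at 1 h and 16.4, 14.6 and 13.4 at 3 h, a log2 change of 1.67 ± 0.22 (adjusted p = 1.4e-05, limma). The ASH1L-/- libraries stood at 7.01, 4.75 and 6.05 without UV, 14.9, 10.3 and 8.79 at 1 h and back at 4.16, 4.84 and 3.82 at 3 h. The 1 h group had the highest mean in both genotypes. The next were in CRTAC1, a gene for a cartilage protein (chr10:97888573-97889775, 1.65 ± 0.19, adjusted p = 8e-06), and chr3:10738147-10739634 between genes (1.58 ± 0.19, adjusted p = 8e-06).

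Of the 14 members that fell in WT, those that fell most did so by less. They were in the lncRNA gene ENSG00000291073 (chr16:21517374-21517736, −0.70 ± 0.20, adjusted p = 0.0087, limma), in TPST1, a tyrosine sulfotransferase (chr7:66263201-66267641, −0.68, adjusted p = 0.014), and at chr8:81330920-81332504 (−0.64, adjusted p = 0.018). The first 2 of these calls were lost without unirradiated WT replicate 3, and the last without unirradiated WT replicate 1.

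The greatest rise in ASH1L-/- cells was at chr10:81296160-81298086, between genes and nearest to NRG3, the gene of a neuregulin. It stood at 2.67, 3.02 and 2.61 without UV, 14.3, 11.2 and 10.2 at 1 h and 5.47, 5.28 and 14.2 at 3 h, a log2 change of 1.76 ± 0.24 (adjusted p = 0.00017, limma). In WT it was at 7.23, 6.63 and 9.58 without UV and 5.34 to 10.6 after it, with no change called, so that the unirradiated genotypes differed by −1.48 ± 0.28 (adjusted p = 0.0024). The difference of the UV changes was −1.83 ± 0.34 (adjusted p = 0.0011).

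A CpG-rich member in TNPO1, a nuclear import receptor (chr5:72847410-72854858), gave the same pattern. Its values were 14.2, 12.3 and 15.5 in unirradiated WT and 4.71, 5.29 and 4.31 in unirradiated ASH1L-/- libraries, and 17.9, 19.7 and 6.91 at 1 h and 15.0, 10.5 and 10.4 at 3 h in the latter. The irradiated WT libraries stood at 17.9, 18.2 and 15.8 at 1 h and 8.23, 8.86 and 11.7 at 3 h. The change was 1.41 ± 0.23 (adjusted p = 0.0013, limma) and the difference without UV −1.55 ± 0.27 (adjusted p = 0.0017). The log2 ratio of XPC coverage in the 5 Mb around it was −1.02, and its part in these differences was not tested. The third rise was at chr2:113655908-113657274 (1.39, adjusted p = 8.6e-05). The greatest falls were at chr1:114060512-114062077 (−1.23, adjusted p = 0.00086), chr8:123753938-123755779 (−1.19, adjusted p = 0.00042) and in FSTL4, a follistatin-like gene (chr5:133464137-133466289, −1.14, adjusted p = 0.00096).

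In the 3 members whose UV change in WT most exceeded that in ASH1L-/- cells, the 2 genotypes moved in opposite directions by 3 h. A member near CCZ1B, chr7:6847754-6848805, stood at 7.27, 5.45 and 6.86 in unirradiated WT and 12.5 to 18.5 after UV. The same member in ASH1L-/- cells began at 18.1, 13.7 and 15.1 and fell to 11.3, 9.97 and 8.43 at 1 h and 5.19, 6.05 and 5.83 at 3 h. The difference was 2.36 ± 0.26 (adjusted p = 2.2e-06, limma), and at 3 h the genotypes stood the other way round from where they began. The log2 ratio of XPC coverage of ASH1L-/- to WT in the 5 Mb around it was −1.91, and its part in this difference was not tested.

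The FSTL4 member followed the same course. It stood at 3.49, 3.17 and 4.76 in unirradiated WT, 6.77, 6.48 and 8.47 at 1 h and 10.8, 9.06 and 11.3 at 3 h. Without ASH1L it went from 7.65, 8.17 and 9.37 to 4.10, 4.53 and 3.59 and then 4.24, 3.23 and 3.21, and the difference was 2.35 ± 0.26 (adjusted p = 2.2e-06, limma). A CpG-rich member in ADCY8, an adenylyl cyclase gene (chr8:130946975-130950249), rose from 10.1, 5.17 and 7.09 to 25.6, 20.4 and 23.1 at 3 h in WT and fell from 14.1, 13.5 and 13.3 to 4.46, 5.48 and 4.53 in ASH1L-/- cells, a difference of 2.27 ± 0.28 (adjusted p = 7.3e-06). In all 3 of these the unirradiated ASH1L-/- libraries stood above the unirradiated WT libraries, and the contrasts share those libraries.

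The opposite order was led by LRMDA, a gene for a melanocyte protein (chr10:76109096-76118231), at −2.19 ± 0.52 (adjusted p = 0.014, limma). It fell from 8.58, 6.93 and 8.83 to 4.38, 3.36 and 3.18 at 3 h in WT. In ASH1L-/- cells it went from 3.14, 2.26 and 3.81 to 14.9, 2.77 and 5.63 at 1 h and 5.29, 7.39 and 12.7 at 3 h, and the wide spread of these libraries set the large error. VMP1, a gene of autophagy (chr17:59836698-59843391), gave −1.67 ± 0.37 (adjusted p = 0.006).

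Without UV the greatest gain of ASH1L-/- over WT was on an exon of SMAD3, the gene of a mediator of TGF-beta signals (chr15:67097551-67101642). It stood at 3.22, 1.97 and 2.49 in unirradiated WT and 9.78, 5.44 and 10.7 in unirradiated ASH1L-/- libraries, a log2 difference of 1.72 ± 0.30 (adjusted p = 0.0023, limma). At 3 h the values were 4.72, 5.68 and 4.78 in WT and 2.71, 2.5 and 6.53 in ASH1L-/- cells, which overlap. The log2 ratio of XPC coverage in the 5 Mb around SMAD3 was 0.57. A member near CHRM3, a muscarinic receptor gene (chr1:239358532-239362899), stood at 3.24, 4.38 and 3.57 in WT and 9.58, 9.64 and 9.12 in ASH1L-/- cells (1.35 ± 0.22, adjusted p = 0.00094). The third was in ATP23, a gene for a mitochondrial protease (chr12:57955603-57961821, 1.34, adjusted p = 0.00094). The greatest losses were those of TNPO1 and chr10:81296160-81298086 and one in the lncRNA gene ENSG00000287288 (chr20:30299978-30300796, −1.44 ± 0.24, adjusted p = 0.0011).

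Near the lineage and stress genes, fold enrichment after UV in WT rose at 9 of the 30 members of the mesenchymal list, 16 of 38 of the immediate early list, 4 of 8 of the p53 list and 2 of 11 of the repair list, and fell at 0 of any. The background in WT was 31.6% of all constitutive regions. The numbers that rose in ASH1L-/- cells were 3, 1, 2 and 1, against 7.31%. Centred on each library's median, 1, 1, 2 and 0 members of these lists rose in WT, against 2.74%.

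Of the mesenchymal list, a member near TWIST2, a transcription factor of bone and dermis (chr2:239017477-239020982), stood at 3.54, 3.08 and 5.62 in unirradiated WT, 7.49, 8.49 and 4.42 at 1 h and 11.9, 11.2 and 11.4 at 3 h (log2 change 1.14, adjusted p = 0.00062, limma). In ASH1L-/- cells it went from 5.86, 3.92 and 6.84 to 2.92, 3.39 and 3.06 at 3 h, and the difference was 1.68 (adjusted p = 0.0012). Only the 3 h libraries stood clear of the unirradiated ones in WT. A member in LINC01411 nearest to MSX2, a homeobox gene (chr5:174418592-174419969), rose by 0.68 in WT (adjusted p = 0.02).

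Of the immediate early list, the members of highest mean were in LINC00824 (chr8:128554311-128556165) and PVT1 (chr8:128049395-128057171), lncRNA genes beside MYC, and in ATF3, the gene of a stress-induced transcription factor (chr1:212566320-212567970). They rose in WT by 0.58, 1.06 and 0.55 (adjusted p = 0.02, 0.00027 and 0.03, limma). PVT1 stood at 4.3, 3.97 and 5.66 in unirradiated WT and at 8.0 to 11.4 after UV, and at 6.76 to 10.5 in all 9 ASH1L-/- libraries. Its UV changes differed by 0.86 (adjusted p = 0.043), and the genotypes without UV by 0.80 (adjusted p = 0.021), so the irradiated WT libraries came to the range that ASH1L-/- cells had from the start.

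Of the p53 list, the member in SESN1, a gene of the oxidative stress response (chr6:109007160-109010684), was CpG-rich and rose in both genotypes. It stood at 7.12, 5.94 and 6.44 in unirradiated WT, 19.3, 19.3 and 11.1 at 1 h and 11.5, 10.9 and 10.5 at 3 h, and at 5.61, 5.58 and 6.04, then 14.6, 10.1 and 8.84, then 7.80, 6.65 and 6.99 in ASH1L-/- cells. The log2 changes were 1.03 (adjusted p = 0.00056, limma) and 0.62 (adjusted p = 0.049), and centred the rise in WT was 0.62 (adjusted p = 0.018). The 1 h group had the highest mean in both genotypes. A member in CHIT1 nearest to BTG2, an antiproliferative gene (chr1:203267343-203268079), rose by 0.91 in WT (adjusted p = 0.0013), and one in FAS and ACTA2 (chr10:88974521-88975989), the first a death receptor gene, by 0.61 in ASH1L-/- cells (adjusted p = 0.037).

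Of the repair list, both members in ERCC1, the gene of a subunit of the incision nuclease of excision repair, were CpG-rich and rose in WT. The one at chr19:45439495-45440535 went from 5.38, 2.76 and 4.38 to 9.02, 9.47 and 5.88 at 1 h and 6.80, 6.90 and 6.02 at 3 h, a change of 0.84 (adjusted p = 0.0043, limma), and its UV changes differed between the genotypes by 1.04 (adjusted p = 0.028). The other, chr19:45442915-45444880, rose by 0.53 (adjusted p = 0.039). The member in MORF4L1, the gene of the ASH1L partner MRG15 (chr15:78858738-78861533), overlapped a tRNA gene and passed in no contrast of fold enrichment. Of the 4 strongest tRNA members of chromosome 6, chosen after their values were seen, chr6:27790939-27793902 rose in WT (0.55, adjusted p = 0.019), and chr6:27501380-27506688, chr6:28727434-28730096 and chr6:28474008-28476096 rose in ASH1L-/- cells (0.55, 0.60 and 0.63, adjusted p = 0.035, 0.048 and 0.028).

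XPC peaks, which the rule did not use, covered members more densely than the genome in every library. The share of member bases under XPC peaks was 12.8 to 30.0% over the 19 lists, against 5.46 to 15.3% of the genome, and was the higher of the 2 in 19 of 19. Distal regions with a peak in 3 to 17 lists had a like share, 10.9 to 27.1%, with a mean of 18.4% over the 19 lists beside 19.2% in members, and at 1 h in WT their mean was the higher (15.8% and 15.1%). Between 49.8 and 73.1% of members held an XPC peak. By group the share was 22.4 ± 6.63% in unirradiated WT (SD, n = 4), 15.1 ± 1.21% at 1 h and 19.8 ± 4.14% at 3 h (n = 3), and 21.2 ± 6.27%, 15.5 ± 2.07% and 19.9 ± 8.14% in ASH1L-/- cells (n = 3). At each time the 2 genotypes differed by less than their SD.

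The XPC share varied more at CpG-rich members, and it was higher there than at CpG-poor members in all but 2 libraries. These were unirradiated WT replicate 4 (10.5% and 14.5%) and WT replicate 2 at 1 h (14.6% in both). CpG-rich members had 10.5 to 67.0% of their bases under XPC peaks, with group means of 36.5 ± 24.4%, 23.3 ± 7.54% and 32.4 ± 11.1% in WT and 35.3 ± 22.2%, 22.1 ± 5.29% and 31.8 ± 18% in ASH1L-/- cells, and constitutive promoters had 12.5 to 57.6%. The 1 h groups had the lowest means and the smallest SDs in both genotypes, and the differences between groups were not tested. Of the 19 lists, 17 held exactly 500000 peaks and 2, WT at 1 h replicate 3 and ASH1L-/- at 3 h replicate 1, held 360980 and 326438. The lowest −log10 p in a list ran from 1.0 to 1.47, so shares between libraries are not on a common scale.

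**Figure D5:**
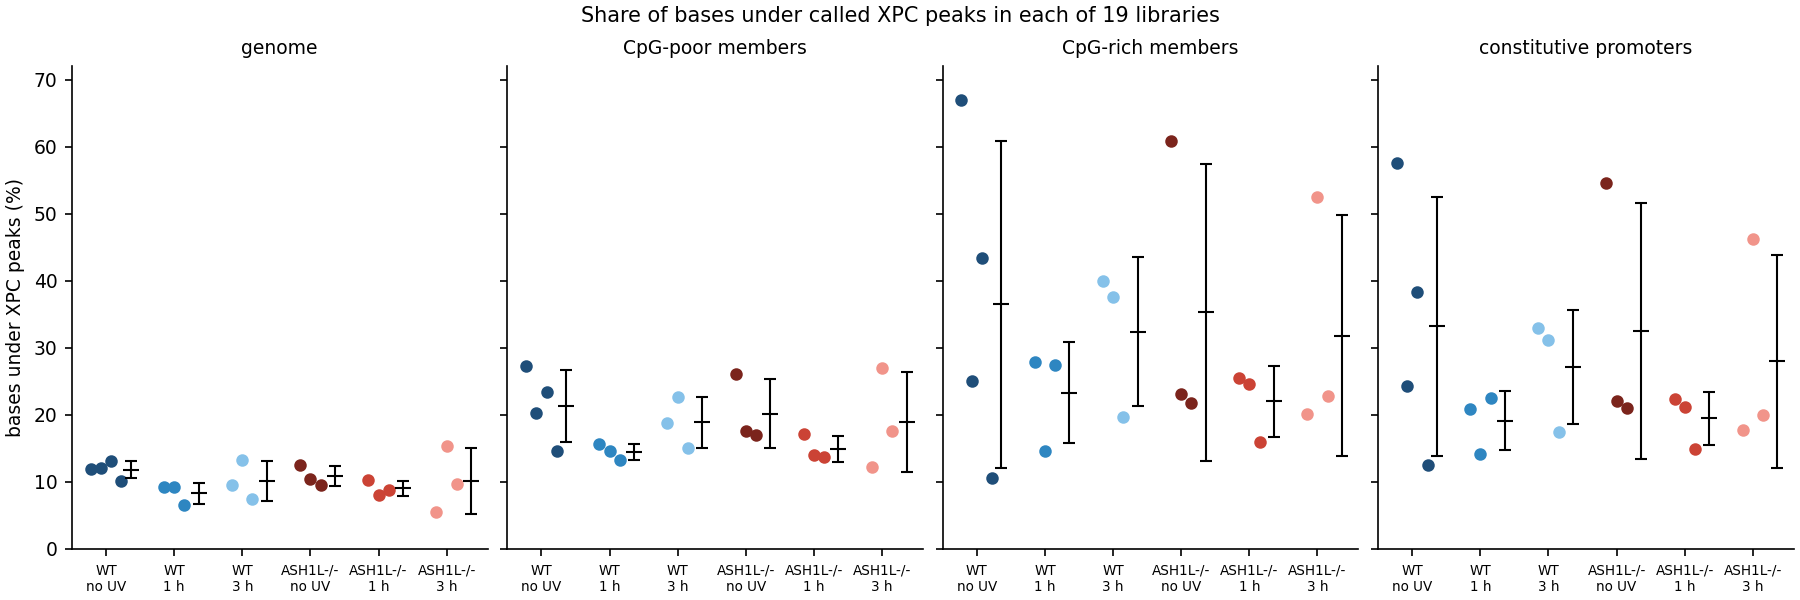
Percent of bases under XPC peaks in each of the 19 XPC libraries, as points by genotype and time, for the genome, CpG-poor members, CpG-rich members and constitutive promoters. The genome lies between 5.46 and 15.3%, and CpG-rich members and promoters spread widely within each group, up to 67.0% and 57.6%.

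Hardly any single member was called for a change in XPC covered length, which does not show that the others were unchanged. Of the 12768 members among the 116206 regions fitted for XPC covered length, 6 shortened and 0 lengthened after UV in WT (background 0.0155% of all regions, both directions), 0 passed in ASH1L-/- cells (0.0112%), and 1 was shorter in unirradiated ASH1L-/- than in WT cells (0.00258%). By limma at an unadjusted p under 0.05 the counts of members were 1426, 1101 and 984. The counts over all 116206 regions at that threshold are not given here, so members cannot be set against them. The 2 shorter lists bear on these calls, since without them 0 passed in either called contrast. Leaving out 1 library gave 0 to 41 calls for WT, moved beyond 1.5 times by all but unirradiated ASH1L-/- replicate 1, WT replicate 2 at 1 h and ASH1L-/- replicate 2 at 3 h, with 41 without unirradiated WT replicate 4 and 0 without WT replicate 2 at 3 h. For ASH1L-/- cells it gave up to 22, without their unirradiated replicate 3, and between the unirradiated genotypes 0 to 24, with 24 without WT replicate 4.

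The member of LINC02454 and MSRB3-AS1 (chr12:65602203-65608840) covered 3.93, 2.27, 4.81 and 4.22 kb of XPC peaks in unirradiated WT and 0 to 0.445 kb in the 6 irradiated libraries, a change of −3.60 ± 0.66 kb (adjusted p = 0.046, limma). The ASH1L-/- libraries had 3.46, 2.42 and 2.55 kb without UV and 0.157 to 2.48 kb after it, a change of −1.82 kb that was not called (adjusted p = 0.56). The groups overlapped in ASH1L-/- cells and not in WT, and the call in WT was lost without any of 13 of the 19 libraries.

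In the next 2 the ASH1L-/- libraries were low from the start. In CACNA1C, a calcium channel gene (chr12:2065934-2072130), XPC peaks covered 1.27, 4.01, 4.07 and 2.43 kb in unirradiated WT, at most 0.514 kb after UV, and at most 0.797 kb in any ASH1L-/- library (−2.77 ± 0.43 kb, adjusted p = 0.0078, limma, or 0.051 without WT replicate 2 at 3 h). In MAP4K5, a kinase gene (chr14:50469886-50476178), they covered 0, 4.96, 4.13 and 3.97 kb in unirradiated WT, so that 1 library was at 0, and at most 0.796 kb elsewhere (−3.07 kb, adjusted p = 0.047, lost without any of 15 of the 19 libraries). The 1 member whose XPC coverage differed between unirradiated genotypes lay in CACNA1C and DCP1B (chr12:1983967-1988848), with 1.76, 1.36, 2.14 and 1.37 kb in WT and 0 in all 9 ASH1L-/- libraries (−1.66 ± 0.28 kb, adjusted p = 0.049, lost without any of 13 of the 19 libraries). It also shortened after UV in WT (−1.51 ± 0.24 kb, adjusted p = 0.0093), as did a member in KTN1-AS1 (chr14:55536168-55537880, −1.06 ± 0.17 kb, adjusted p = 0.0093). The members of CACNA1C and DCP1B lay in the same 5 Mb, where the log2 ratio of XPC coverage of ASH1L-/- to WT was −3.36. This ratio was −1.38 in the 5 Mb around MAP4K5 and 0.09 around LINC02454. A value over 5 Mb does not show whether all of the stretch was low. The part of copy number in these values was not tested.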

How the data were processed

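Deposited peak lists of U2OS cells were used, 18 from H3K4me3 and 19 from XPC immunoprecipitates. Of the 61 samples of the series, the 18 inputs and 6 samples of XPC-deficient cells entered only as controls of the lists. Per the labels and the study's methods, the authors trimmed reads with Trim Galore 0.6.5, aligned them to hg38 without chromosome Y with BWA 0.7.17-r1188, kept reads with a mapping quality of at least 30, removed duplicates with Picard and SAMtools 1.7 and filtered with bedtools 2.29.2. Each library had its own peak calling by MACS2 2.2.7.1, with a stated threshold of 0.01. H3K4me3 was called in narrow mode with input as the control. XPC was called in broad mode, where the control was XPC immunoprecipitated from XPC-deficient cells. The weakest peaks of every XPC list fall short of that threshold, at deposited −log10 p values between 1.0 and 1.47. The main XPC results here keep these weak peaks. The authors describe their XPC data as not peaky. They used XPC peaks only to check replicates, and continuous signal for their further XPC results. In each deposited list the fold enrichment is a ratio over the local control, and the deposited −log10 p and −log10 q values describe 1 library against its control. Start and end are deposited positions in bases. Controls were pooled by the authors before peak calling. The study lists read totals per library, which were not used here, and the lists hold no counts of reads per region, so no interval for counting error is given.

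The lists were merged into regions, and start sites were taken for 19970 protein-coding and 18756 lncRNA genes of GENCODE 44 (MANE transcript, otherwise Ensembl canonical) and for 443 tRNA genes of RefSeq. For each library the highest fold enrichment in a region and the bases under peaks (covered length) were computed with Python 3.11.15, numpy 2.4.6 and pandas 2.3.3. Group means were fitted with limma 3.58.1 (R 4.3.3; variance trend, robust estimation) on covered length in kb and on log2 fold enrichment, without a replicate block, after tests of the code on simulated data. P-values were adjusted by Benjamini and Hochberg over all regions of a contrast. Fold enrichment was fitted for the 29008 regions with a peak in all 18 lists, covered length for regions with a peak in at least 3.

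The members, gene lists and tests were chosen with earlier results of these data known. Members were named by rule: the 6 of highest mean fold enrichment, the 4 longest, the 3 greatest changes called in each direction and contrast, those nearest the thresholds of the rule, and up to 3 per gene list. A few of these are not reported here. The tRNA members of chromosome 6 were added after their values were seen. Alternatives were start sites of all transcripts or of gene records, peaks restricted to a fold enrichment from 5 up, scaled length, centred fold enrichment, log2 −log10 p, a peak minimum of 9 lists, the block, and each library left out. Scaling together with the block, and XPC without the 2 shorter lists, were chosen after seeing the data.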

Additional observations from a re-analysis of the deposited data

Results flagged for a closer look

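Results are listed here because the UV changes of the 2 genotypes differed by limma's test of the difference, or because 1 library stood apart. By covered length the UV changes differed for 563 members. The change was greater in WT for 561 and smaller for 2, against 3.00% and 0.125% of all regions fitted. By fold enrichment they differed for 1122 members, greater in WT for 1046 and smaller for 76, against 6.90% and 0.524% of all constitutive regions. The shares of members are given above. Among the named members, covered length differed by 25.2 kb in TRAPPC9, 15.6 kb at chr12:34378375-34408105 and 14.2 kb at chr8:139494824-139516598, where WT had the greater change. It differed by −1.13 kb in LRRC2 and −0.85 kb at chr4:130542820-130544594, where ASH1L-/- cells did. Log2 fold enrichment differed by 2.36 at chr7:6847754-6848805, 2.35 in FSTL4 and 2.27 in ADCY8, and by −2.19 in LRMDA, −1.83 at chr10:81296160-81298086 and −1.67 in VMP1. Each of these contrasts holds the unirradiated libraries of both genotypes, whose levels are given above. The XPC covered length of chr16:27144644-27146663 in the 4 unirradiated WT libraries was 0.129 kb in replicate 2 and 0 in the other 3, so the gap of the highest to the rest was the whole range (ratio 1). With 3 of 4 values at 0 the ratio is 1 by construction, so it carries no chance rate.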

How the results depend on the processing

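The rule kept 10540 members with start sites of all transcripts, 13732 with the 5′ ends of gene records, 11761 with peaks of a −log10 q of at least 1.3, and 988 with peaks restricted to a fold enrichment from 5 up. Scaled to an equal total, members called for covered length numbered 291 after UV in WT and 493 between the unirradiated genotypes, and with a minimum of 9 lists 718 after UV in ASH1L-/- cells. Centred, fold enrichment gave 373 calls after UV in WT and 1142 between the unirradiated genotypes. With log2 of the −log10 p in place of fold enrichment the calls were 7184 (UV in WT), 2107 (UV in ASH1L-/-), 295 (difference) and 181 (unirradiated genotypes). XPC gave 0 calls in WT and 0 between genotypes with peaks of a −log10 p of at least 2, 3 and 0 when scaled, and 0 and 0 without the 2 shorter lists. The cause of these shifts was not tested. Shares over all fitted regions stand above for the scaled and centred H3K4me3 calls. For the other settings of this section they are not given, so those counts of calls cannot be set against all regions.

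Leaving out 1 library gave 500 to 2887 (UV in WT), 126 to 691 (UV in ASH1L-/-), 312 to 775 (difference) and 46 to 144 (unirradiated genotypes) calls of covered length, 1277 to 4962, 252 to 1569, 619 to 1407 and 164 to 997 of fold enrichment, and 0 to 41, 0 to 22 and 0 to 24 (unirradiated genotypes) of XPC. Of 925 such refits of named members, 117 lost a call and 12 gained one. Of 24 named fold enrichment values, centring kept the direction and side of the threshold in all 24, and of 27 named covered lengths, scaling kept 22. With peaks from a fold enrichment of 5 up, 12 named covered lengths lost their call and only 7 kept their direction and side of the threshold.

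Samples with the same replicate number deviated together, at a correlation over 0.1, in 28 of 45 pairs of groups for covered length, 13 for fold enrichment and 19 for XPC. Their mean correlation was 0.112, 0.049 and 0.032 in this order, and −0.056, −0.025 and −0.013 for samples of different numbers. The main fits did not pair samples by number, and a shared effect of the number is not excluded. The replicate block gave 2512 (UV in WT) and 640 (UV in ASH1L-/-) calls of covered length. With the replicate block, XPC gave 36 calls in WT, 1 in ASH1L-/- cells and 5 between genotypes. With the replicate block and scaling, covered length gave 415 (UV in WT), 730 (UV in ASH1L-/-) and 601 (unirradiated genotypes) calls, and with the block and centring, fold enrichment gave 429 (UV in WT) and 1260 (unirradiated genotypes). Among named members the block lost the call of chr4:130542820-130544594 (−0.85 kb) and gained that of KTN1-AS1 (−1.14 kb of XPC between genotypes).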
